A study of Homo sapiens with 6 samples.

Results

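The transcription factor NRF2, encoded by NFE2L2, its inhibitor KEAP1 and 35 genes known as NRF2 targets were followed in RNA-seq of A549 cells. These 37 genes were taken by symbol from the 26485 gene symbols of the count data, and 36 of them had enough counts to be tested. A549 is a human lung adenocarcinoma cell line that carries an inactivating mutation of KEAP1, which gene counts do not show. All cells stably expressed dCas9-KRAB, a nuclease-dead Cas9 fused to the KRAB repressor domain, and rat Nkx2-1, a lung transcription factor, carried by a lentiviral PGK vector with GFP. The cells had been selected with puromycin for dCas9-KRAB and sorted on GFP for Nkx2-1. They were transiently transfected with synthetic sgRNA #2, which targets the first intron of the surfactant gene SFTPB, or with a non-targeted sgRNA control. Each group had 3 libraries, described as biologically independent triplicates. Cells without dCas9-KRAB or without Nkx2-1 were not analysed here, so the levels below are those of cells that carry both.

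NRF2 is held low in unstressed cells because KEAP1 binds it and presents it to a cullin ubiquitin ligase for degradation. When KEAP1 is modified by electrophiles, or is mutated, NRF2 accumulates, pairs with a small MAF protein and binds antioxidant response elements beside its target genes. The targets make and recycle glutathione and thioredoxin, supply NADPH, reduce quinones and carbonyls, handle heme and iron, and export conjugates. Lung adenocarcinomas with mutant KEAP1 are known for steadily high expression of these genes.

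The core of the antioxidant response element, TGACNNNGC or its reverse complement GCNNNGTCA, was searched on both strands of RefSeq promoter windows (GRCh38.p14, from 250 bases before to 50 after the start site). A window was at hand for 25 of the 37 genes, and 9 of these (36.0%) held the motif. It occurred in 13.3% of 35116 windows of the same length, and in 19.6% of the 9918 tested genes with a window. A match is a description of letters and not a measured binding site. The stretches below are shown because they place the motif beside KEAP1 and beside glutathione, thioredoxin, NADPH and carbonyl reduction genes, with the motif in capitals and each read on the strand of the gene.
KEAP1, chr19:10502784-10502812, minus strand: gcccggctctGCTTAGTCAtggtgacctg
GCLM, chr1:93909446-93909474, minus strand: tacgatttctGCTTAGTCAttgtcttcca
GPX2, chr14:64942849-64942877, minus strand: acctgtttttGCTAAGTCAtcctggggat
TXNRD1, chr12:104286920-104286948, plus strand: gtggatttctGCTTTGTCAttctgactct
ME1, chr6:83431170-83431198, minus strand: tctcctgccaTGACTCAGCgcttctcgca
CBR1, chr21:36069855-36069883, plus strand: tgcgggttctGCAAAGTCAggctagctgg
The matches of KEAP1, GCLM, GPX2, ME1 and CBR1 began between -159 and -31 bases from the start site, and the one shown for TXNRD1 at -102. KEAP1 held a second match in the same window, at -54, and ME1 had a further match at 11. TXNRD1 had further matches at -99 and -8, outside the window of the match shown. The one at -99 lay at another start site, at chr12:104215670-104215698. The other genes with a match were PGD, EPHX1 and PIR. No window was at hand for 12 genes, ABCC3, TRIM16L, HMOX1 and SLC7A11 among them.

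The target of sgRNA #2 was compared with the genome around the same genes, because the guide is the labelled difference between the groups. Below it stand the sites with at most 4 mismatches and an NGG PAM in a tested member or within 1000 bp of it, read on the strand that the guide matches. The PAM is the last 3 bases, and capitals mark the unbroken match beside the PAM, which in the target is set at 9 bases.
sgRNA #2 target: gggatgggaggGGAACACCCagg
ABCC3, chr17:50687023-50687045 (hg38), minus strand: ggcagggcagaGGAACACCCggg
KEAP1, chr19:10489614-10489636 (hg38), minus strand: cggtagggaggggagCACCCagg
Counted from 1 at the 5′ end of the guide, the ABCC3 site differed by G3C, T5G, G8C and G11A, and the KEAP1 site by G1C, A4T, T5A and A15G. The ABCC3 site lay in an intron, at -275 bp from the nearest annotated start site but 52153 bp from that of the canonical transcript. The KEAP1 site also lay in an intron, at -190 bp from the nearest annotated start site and 13731 bp from the canonical one. Such sites occurred in 2 of 36 tested members and in 196 of 13075 tested genes (1.5%). A site with the 9 PAM-proximal bases within 1000 bp of an annotated start site occurred in 1 member, ABCC3, and in 63 genes (0.482%). The sites were a property of the sequence alone. Binding of dCas9-KRAB was not measured, and its part in any difference below was not tested.

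Between 6047554 and 7584611 reads per library were counted on genes. SFTPB, the gene targeted, was counted 2683 to 3155 times per library in the control and 40 to 49 times with sgRNA #2, so the labels matched it in all 6 libraries. Levels are given in CPM, counts scaled by TMM to a common library size. Before TMM scaling, 3 counts corresponded to 0.396 to 0.496 CPM. Both groups expressed epithelial keratins, with 6 epithelial markers summing to 3579 to 4542 CPM in the control and 3379 to 4156 CPM with sgRNA #2, although KRT19 lay at 0 to 0.568 CPM and CDH1 was lower with sgRNA #2 (log2 fold change -0.34, adjusted p = 0.00728 from edgeR). The 5 fibroblast markers summed to 6.96 to 10.0 CPM and 6.15 to 9.74 CPM, with 2 of them at 0. The 5 leukocyte markers summed to 62.5 to 68.3 CPM and 66.0 to 68.3 CPM, with 3 of them at 0, PTPRC included, and nearly all of the sum from CD68 (61.9 to 68.2 CPM over the libraries), and the 5 endothelial markers to under 1 CPM.

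Most of the NRF2 targets followed here were among the most abundant transcripts of these cells. Together the 37 genes took 2.43, 2.50 and 2.52% of the gene counts with the control guide and 2.37, 2.42 and 2.53% with sgRNA #2. These shares overlapped between the groups. Levels of different genes were compared as CPM per kilobase of annotated exon. On this scale 31 of the 36 tested members ranked in the highest 10 percent of tested genes in the control, and 13 in the highest 1 percent. Of all 37 genes, 6 lay over 500 CPM per kilobase, 12 between 100 and 500, 16 between 10 and 100, and 3 under 10.

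**Figure D1:**
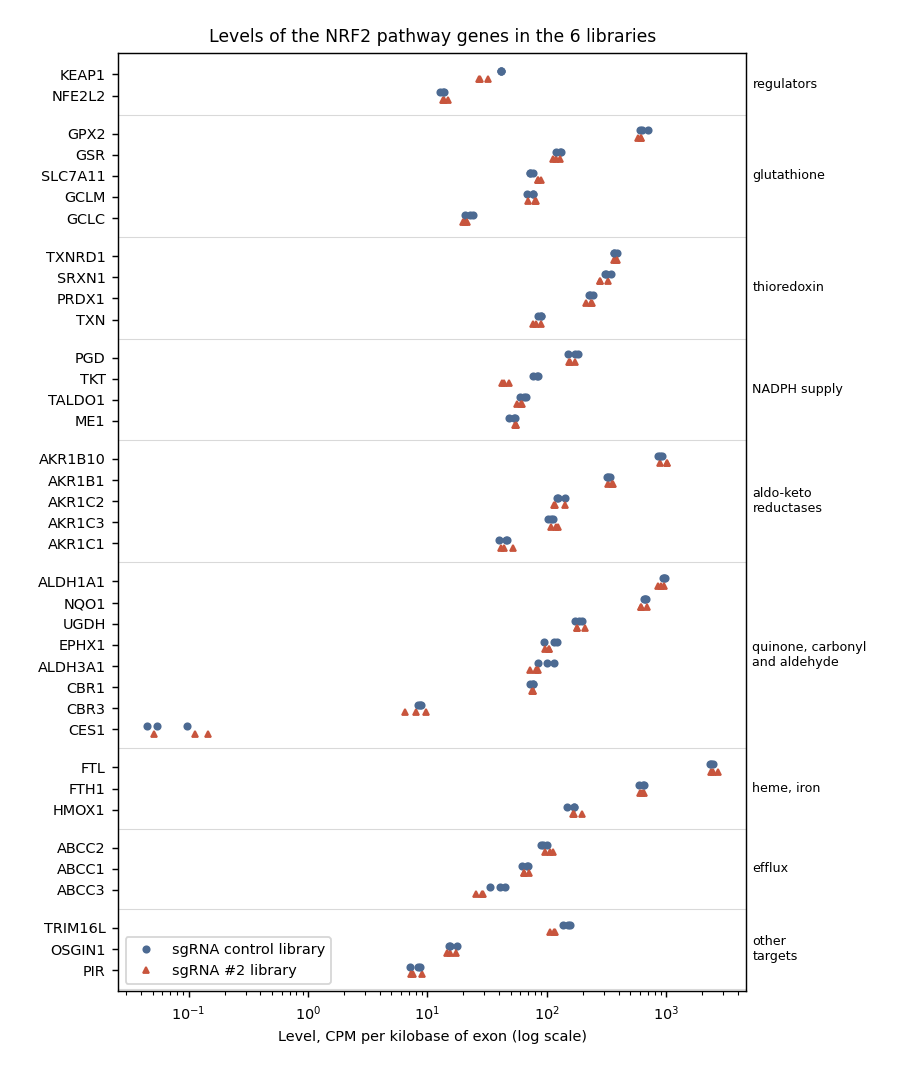
Level of the 37 genes in CPM per kilobase of exon, on a log axis, grouped by role. Each circle is a control library and each triangle an sgRNA #2 library. FTL lies highest, with a control mean of 2398, CES1 lies near the limit of detection, and the circles and triangles of TKT, KEAP1, ABCC3 and TRIM16L stand apart.

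FTL, the light chain of the iron store ferritin, was the highest member, with 2084, 2160 and 2021 CPM in the control libraries and 2073, 2160 and 2352 CPM with sgRNA #2. Per kilobase this was 2398 ± 80.2 and 2520 ± 164 (SD, n = 3 each). ALDH1A1, an aldehyde dehydrogenase that also makes retinoic acid, followed with 2707, 2695 and 2798 CPM against 2427, 2588 and 2736 CPM. Its level per kilobase was 963 ± 19.9 in the control and 910 ± 54.4 with sgRNA #2. AKR1B10, an aldo-keto reductase of retinal and lipid aldehydes, stood at 889 ± 36.5 per kilobase in the control and 973 ± 72.2 with sgRNA #2. ALDH1A1 and AKR1B10 thus changed places between the groups, and with sgRNA #2 they did not differ beyond their spread. NQO1, the quinone reductase often used to read NRF2 activity, had 664 ± 11.8 CPM per kilobase in the control. GPX2, a glutathione peroxidase of epithelia, had 649 ± 55.8, and FTH1, the ferritin heavy chain, 629 ± 34.3. NQO1, GPX2 and FTH1 were neighbours that did not differ beyond their spread. Part of this order depended on the length assigned to each gene. With the longest annotated transcript in place of all exons together, FTH1 moved from rank 6 to rank 3 and AKR1C3 from rank 18 to rank 11, while FTL and ALDH1A1 stayed at ranks 1 and 2.

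The regulators lay below most of their targets. NFE2L2 had 13.4 CPM per kilobase in the control, at the 69.9th percentile of tested genes, and KEAP1 had 41.2, at the 92.4th percentile. ABCC3 at 39.8 and GCLC at 22.4 also lay below KEAP1. The lowest tested targets were OSGIN1, an oxidative stress-induced growth inhibitor, at 16.2, CBR3, a carbonyl reductase, at 8.61, and PIR, an iron-binding nuclear protein, at 8.02. These levels also depended on the length assigned. With the longest annotated transcript, NFE2L2 had 39.2 CPM per kilobase in the control, KEAP1 55.6 and ABCC3 67.2. Without scaling by length, the control mean was 200 CPM for NFE2L2 and 147 CPM for KEAP1. CES1, a liver-type carboxylesterase, was counted at 1, 2 and 1 reads in the control and at 3, 1 and 2 with sgRNA #2. All 6 values were at or under the 3 counts taken as the limit of detection, so CES1 was not tested.

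With sgRNA #2, most of the pathway stayed close to the control and 4 genes were lower. At the cut-offs of the study, a log2 fold change of at least 1 in size and an adjusted p-value under 0.05, 0 of the 36 tested members were called by edgeR, against 0.719% of all tested genes. DESeq2 also called 0, and 7 members had an unadjusted p under 0.05 in edgeR. Of these 5 were lower and 2 higher, where 6.8% and 4.35% of all tested genes had such a p in these directions. By adjusted p alone, edgeR called 4 members lower and 0 higher, where 2.22% and 0.464% of all tested genes were called in these directions. The 4 were TKT, KEAP1, ABCC3 and TRIM16L. The 3 libraries of a group did not overlap with the other group in 5 members that were lower and 1 that was higher, against 8.83% and 6.76% of all tested genes. The median log2 fold change of the 36 members was -0.03, beside 0.0035 for all 13356 tested genes. For the 32 members not called, the estimates ran from -0.33 to 0.21. The 95% interval of the change lay within 1.5-fold in either direction for 33 of 36 members (91.7%), against 77.7% of all tested genes. It lay within 1.2-fold for 22 (61.1%), against 33.9% of all tested genes. The members lay at a median percentile of 98.2 for control level among tested genes. Intervals are narrower for genes with more counts, and these shares were not matched for level.

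**Figure D2:**
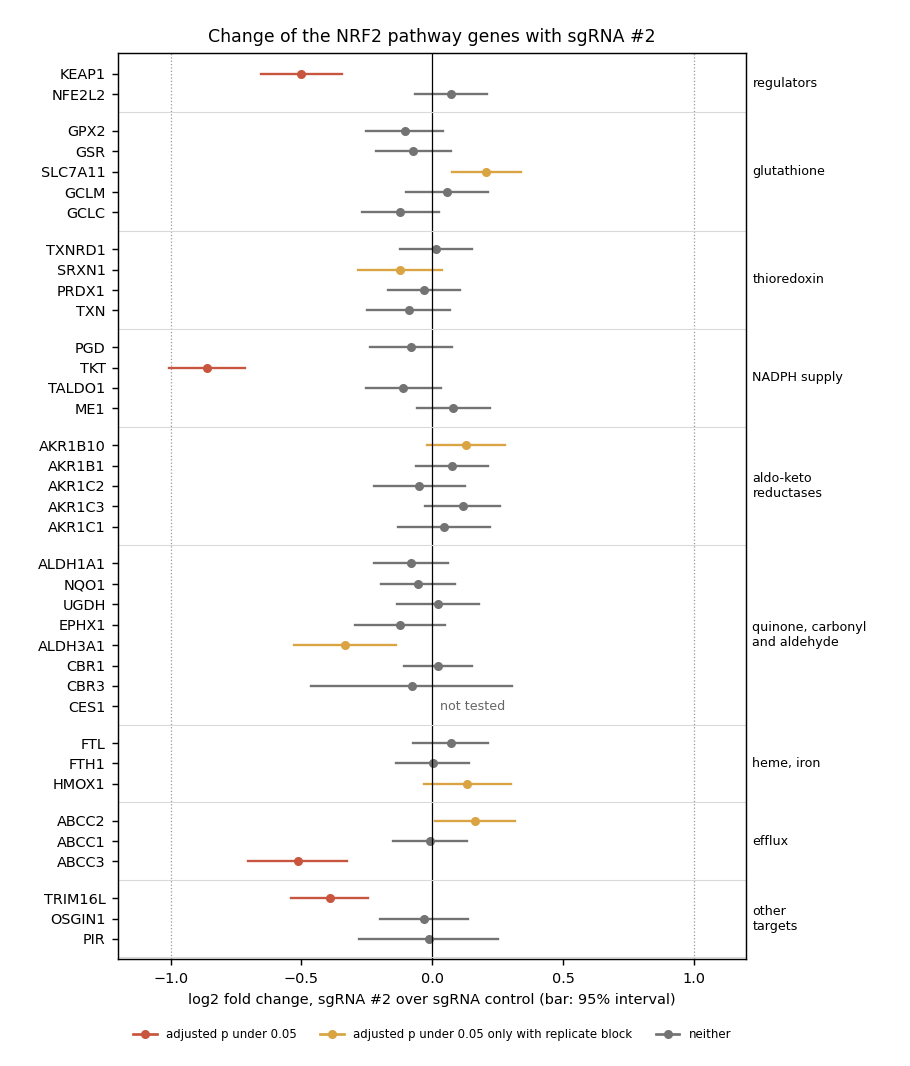
Log2 fold change of sgRNA #2 over the sgRNA control for the 36 tested genes, by role, with bars for the 95% interval from edgeR and dotted lines at -1 and 1. TKT, KEAP1, ABCC3 and TRIM16L lie to the left of 0, and the estimates of the other genes lie between -0.33 and 0.21.

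The groups shared replicate numbers, and same-numbered libraries deviated together across genes. With the replicate number as a block, edgeR called 6 members lower and 4 higher, or 10 in all, where 6.06% and 3.97% of all tested genes were called. All 4 members called without the block were among the 10. DESeq2 with the same block called 5 lower and 2 higher, against 1.79% and 0.741% of all tested genes, and so lost the calls of SRXN1, AKR1B10 and HMOX1. The 6 members added by the block in edgeR are named below although they were chosen after their values were seen. In that fit the prior degrees of freedom were infinite, so its p-values rest on the trend of dispersion with abundance. For the called members they were much smaller than without the block. The shares of the prior and of the removed replicate differences in this were not tested.

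Between the regulators, KEAP1 differed and NFE2L2 did not pass the test. KEAP1, the substrate adaptor that holds NRF2 down, lies on chromosome 19 from 10486125 to 10503558 (minus strand, GENCODE 44 on GRCh38). Its reads numbered 922, 1040 and 1129 with the control guide and 817, 658 and 586 with sgRNA #2. Scaled, these were 147, 147 and 148 CPM against 116, 98.6 and 97.4 CPM. All sgRNA #2 libraries lay below all control libraries, whose values were nearly the same. The log2 fold change was -0.50 (SE 0.074, adjusted p = 0.000449 from edgeR), or 0.707-fold, which placed KEAP1 at rank 96 when tested genes were ordered by p. The estimate stayed between -0.58 and -0.45 over 14 alternative settings and passed in all 14. In GENCODE 44 the span of KEAP1 overlaps another annotated gene on its strand. Of the 50-base words of its canonical transcript, 0.0% occur in another gene. The span of NFE2L2 overlaps 5 annotated genes on its strand and 6 on the other. How the counting treated reads in these overlaps is not known. NFE2L2 had 206, 191 and 204 CPM in the control and 203, 207 and 222 CPM with sgRNA #2. The groups overlapped, and the log2 fold change was 0.07 (95% interval -0.07 to 0.21, adjusted p = 0.781 from edgeR).

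The machinery around NRF2 was read from 13 further genes, of which 12 were tested. By adjusted p in edgeR 2 were lower, MAFG and SQSTM1, and 0 higher. Over all tested genes 2.22% and 0.464% were called in these directions. MAFG, a small MAF protein that pairs with NRF2 on DNA, had 262, 259 and 262 CPM in the control and 169, 147 and 166 CPM with sgRNA #2. The groups were far apart, and the log2 fold change was -0.70 (SE 0.067, adjusted p = 3.44e-06 from edgeR). SQSTM1 encodes p62, an autophagy receptor that binds KEAP1 and sequesters it. It had 1068, 1031 and 1090 CPM in the control and 782, 694 and 746 CPM with sgRNA #2, with no overlap. Its log2 fold change was -0.52 (SE 0.065, adjusted p = 7.25e-05 from edgeR). MAFG and SQSTM1 are themselves known to respond to NRF2. Both passed in all 14 alternatives. Of the other small MAF genes, MAFF was estimated at 0.49 on the log2 scale (adjusted p = 0.089 from edgeR, and 0.00714 with the replicate block) and MAFK at 0.19 (adjusted p = 0.493, and 0.0282 with the block). BACH1, which competes with NRF2 for the same DNA elements, stood at 0.18 on this scale (adjusted p = 0.513, and 0.0400 with the block). In DESeq2 with the same block none of these 3 genes passed, with adjusted p of 0.598 for MAFF, 0.786 for MAFK and 0.871 for BACH1. CUL3, the cullin of the KEAP1 ligase, was at 0.05 (adjusted p = 0.865 from edgeR). An exon of CUL3 held a site of the sgRNA #2 target with 4 mismatches. It lay 140 bp from the nearest annotated start site and 105379 bp from the canonical one. No such site was found in MAFG or SQSTM1. BACH2 was too low to be tested.

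**Figure D3:**
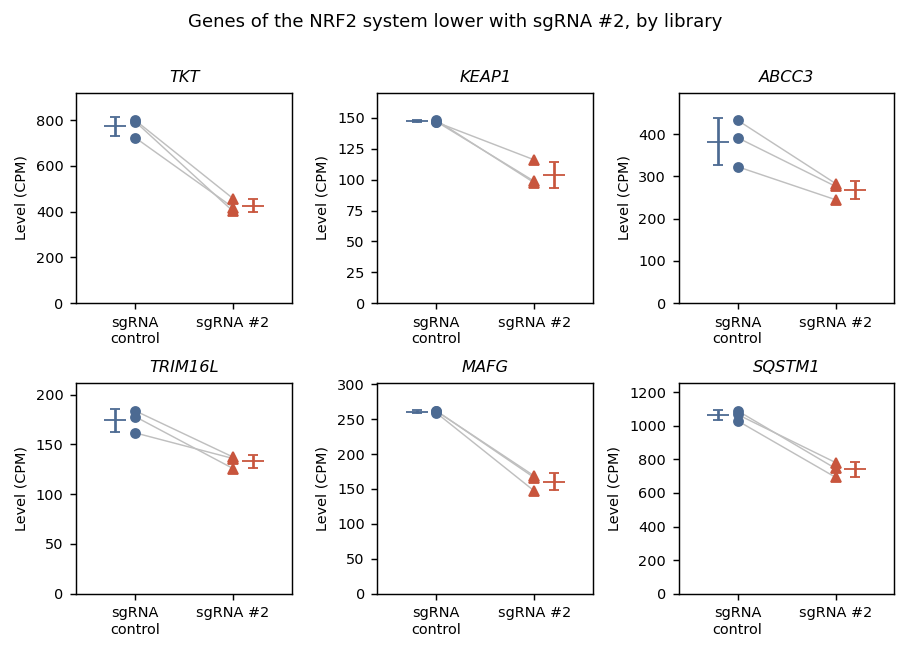
Level in CPM of 6 genes of the NRF2 system in each library, with grey lines joining libraries of the same replicate number and bars for the mean and SD of each group (n = 3). In each panel the 3 sgRNA #2 libraries lie below the 3 control libraries, with means of 772 and 425 for TKT and 261 and 161 for MAFG.

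None of the 5 glutathione genes passed in edgeR without the block. GPX2 had 808, 953 and 848 CPM in the control and 777, 817 and 832 CPM with sgRNA #2, and the groups overlapped (log2 fold change -0.11, adjusted p = 0.661 from edgeR). GCLC and GCLM, the catalytic and modifier subunits of the enzyme that limits glutathione synthesis, had log2 fold changes of -0.12 and 0.06 with overlapping groups. GSR, which reduces oxidised glutathione, had one of -0.07. SLC7A11, the cystine importer that feeds the pathway, had 743, 699 and 702 CPM in the control and 857, 809 and 808 CPM with sgRNA #2. It was the only member whose sgRNA #2 libraries all lay above the control libraries. On the log2 scale the change was 0.21 (95% interval 0.08 to 0.34, adjusted p = 0.108 from edgeR), and it was close to 0.21 within each pair of same-numbered libraries (0.21, 0.21 and 0.20). With the replicate block the adjusted p was 2.73e-05, and with DESeq2 without the block 0.0356.

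The 4 thioredoxin genes did not pass without the block. TXNRD1, thioredoxin reductase, stood at 2504 ± 98.3 CPM in the control and 2527 ± 83.0 CPM with sgRNA #2 (SD, n = 3 each), and its estimate of 0.01 fell below 0 without control replicate 2, control replicate 3 or sgRNA #2 replicate 3. TXN, its substrate, and PRDX1, a peroxidase recycled by it, had log2 fold changes of -0.09 and -0.03. SRXN1, the sulfiredoxin that repairs overoxidised peroxiredoxins, had one of -0.12 (adjusted p = 0.618 from edgeR, 0.0319 with the replicate block and 0.230 with DESeq2 and the block). In GENCODE 44, 90.6% of the 50-base words of the SRXN1 transcript are shared with an overlapping readthrough gene, so its counts are uncertain to that extent.

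Of the 4 genes that supply NADPH, TKT alone was called. TKT, transketolase of the non-oxidative pentose phosphate pathway, lies on chromosome 3 from 53224712 to 53256052 (minus strand), where GENCODE 44 has no overlapping gene. Its reads numbered 4553, 5614 and 6094 with the control guide and 2944, 2676 and 2748 with sgRNA #2. Scaled, these were 724, 794 and 800 CPM against 418, 401 and 457 CPM. The sgRNA #2 libraries lay far below the control libraries in every pair. This was a log2 fold change of -0.86 (SE 0.069, 95% interval -1.01 to -0.72, adjusted p = 3.51e-07 from edgeR), or 0.550-fold. TKT stood at rank 21 in the order of p-values over tested genes and had the largest change of the 36 members. The estimate stayed between -0.91 and -0.82 over 14 alternatives and passed in all of them. No site of the sgRNA #2 target with at most 4 mismatches was found in TKT. The neighbouring enzymes did not pass. PGD, of the oxidative branch, and TALDO1, transaldolase, had log2 fold changes of -0.08 and -0.11, with overlapping groups. ME1, malic enzyme, had one of 0.08. A difference between the change of TKT and those of these enzymes was not tested.

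None of the 5 aldo-keto reductases passed without the block. AKR1B10 had 1508, 1637 and 1585 CPM in the control and 1578, 1788 and 1809 CPM with sgRNA #2. The groups overlapped, and the log2 fold change was 0.13 (adjusted p = 0.537 from edgeR, 0.0297 with the replicate block and 0.0750 with DESeq2 and the block). AKR1B1, aldose reductase, had a log2 fold change of 0.07. AKR1C1, AKR1C2 and AKR1C3, which reduce steroids and carbonyls, had values of 0.04, -0.05 and 0.12, and AKR1C1 and AKR1C2 each took the other sign in some fits that left out 1 library. These are related copies. Of the 50-base words of AKR1C2, 45.7% also occur in AKR1C1, as do 11.9% of those of AKR1C3, and the counting could have split or dropped such reads. With the counts of all 3 summed, the log2 fold change was 0.02 (adjusted p = 0.959 from edgeR).

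In quinone, carbonyl and aldehyde metabolism, 0 of 7 tested genes passed in edgeR without the block. NQO1 had 1964, 1943 and 2011 CPM in the control and 1822, 1829 and 2046 CPM with sgRNA #2. The highest value was an sgRNA #2 library, so the groups overlapped, and the log2 fold change was -0.05 (95% interval -0.20 to 0.09, adjusted p = 0.857 from edgeR). ALDH1A1 was estimated at -0.08 (adjusted p = 0.749). ALDH3A1, an aldehyde dehydrogenase typical of NRF2-active tumours, had 328, 446 and 388 CPM in the control and 280, 328 and 315 CPM with sgRNA #2. The highest sgRNA #2 library lay just below the lowest control library. The log2 fold change was -0.33 (SE 0.092, adjusted p = 0.0658 from edgeR), and the adjusted p was 0.0401 with DESeq2 and 6.44e-12 with the replicate block. Without control replicate 1, the lowest of its group, the change was -0.44 (adjusted p = 0.00602), and without control replicate 2, the highest, it was -0.22 (adjusted p = 0.332). Over the alternatives its adjusted p reached 0.350. EPHX1, microsomal epoxide hydrolase, had a log2 fold change of -0.12, and CBR1, CBR3 and UGDH ones of 0.02, -0.08 and 0.02. CBR3 was counted at only 39 to 69 reads per library, and its interval ran from -0.46 to 0.31.

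The heme and iron genes did not pass without the block. HMOX1, heme oxygenase, had 390, 389 and 338 CPM in the control and 455, 381 and 389 CPM with sgRNA #2. The log2 fold change was 0.13 (adjusted p = 0.586 from edgeR, 0.0264 with the block and 0.516 with DESeq2 and the block). It was higher with sgRNA #2 in replicates 1 and 3 and slightly lower in replicate 2, at -0.03. FTL was estimated at 0.07 (95% interval -0.07 to 0.22) and FTH1 at 0.0024 (95% interval -0.14 to 0.14). FTH1 had 1276, 1319 and 1184 CPM in the control and 1312, 1258 and 1215 CPM with sgRNA #2. Of its 50-base words, 41.3% occur in processed copies elsewhere in the genome, and 18.5% of those of FTL occur in other genes.

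The 3 efflux transporters, which export glutathione and glucuronide conjugates, held 1 called gene, ABCC3. ABCC3, on chromosome 17 from 50634777 to 50692253 (plus strand), had 323, 433 and 392 CPM in the control and 245, 283 and 277 CPM with sgRNA #2. Replicate 1 was the lowest of its group on both sides, and the groups did not overlap. The log2 fold change was -0.51 (SE 0.090, adjusted p = 0.00262 from edgeR), and over 14 alternatives it ran from -0.62 to -0.41 and passed in all. ABCC2 had 726, 700 and 794 CPM in the control and 835, 758 and 892 CPM with sgRNA #2. These ranges overlapped, and the log2 fold change was 0.16 (adjusted p = 0.397 from edgeR, 0.00238 with the replicate block and 0.0197 with DESeq2 and the block). ABCC1 had 584 ± 33.0 CPM in the control and 581 ± 30.9 CPM with sgRNA #2. The differences between the changes of the 3 genes were not tested.

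Of the other targets, TRIM16L was called. TRIM16L, a shortened copy of the ubiquitin ligase gene TRIM16, lies on chromosome 17 from 18722237 to 18735460 (plus strand), and GENCODE 44 types it as a transcribed pseudogene. It had 184, 178 and 162 CPM in the control and 137, 126 and 136 CPM with sgRNA #2, with no overlap. The log2 fold change was -0.39 (SE 0.070, adjusted p = 0.00301 from edgeR), between -0.44 and -0.35 over the 14 alternatives, all of which it passed. Of its 50-base words, 55.7% occur in TRIM16, and all occur in a further annotated gene of the same symbol that overlaps it. None of its words was therefore unique to it, and its counts are uncertain to that extent. TRIM16 itself had 297, 316 and 301 CPM in the control and 259, 254 and 276 CPM with sgRNA #2, which gave -0.21 on the log2 scale (adjusted p = 0.102, 6.55e-05 with the block and 0.0453 with DESeq2 and the block). No sgRNA #2 site was found in TRIM16L within the 4 mismatches searched. PIR and OSGIN1 had log2 fold changes of -0.01 and -0.03.

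**Figure D4:**
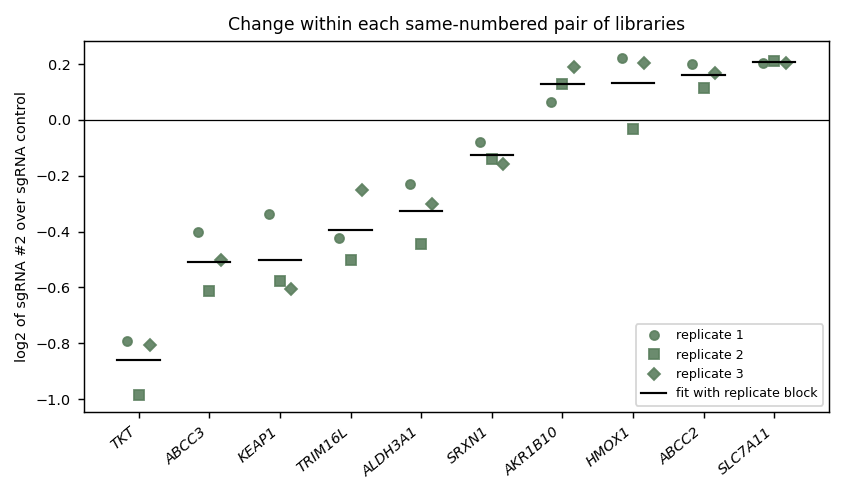
Log2 ratio of sgRNA #2 over the sgRNA control within each same-numbered pair of libraries for the 10 members called with the replicate block, with a bar for the fitted value. In 9 of the 10 all 3 pairs lie on the same side of 0, HMOX1 being the exception, and the 3 pairs of SLC7A11 nearly coincide at 0.21, 0.21 and 0.20.

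The pathway was also read through 17 further NRF2 targets and 15 antioxidant enzymes outside the members. Of the 16 further targets tested, 0 were lower and 1 was higher by adjusted p in edgeR, against 2.22% and 0.464% of all tested genes. The higher gene was NR0B1, an orphan nuclear receptor of KEAP1-mutant lung cancer. It had 95.2, 92.9 and 102 CPM in the control and 123, 108 and 125 CPM with sgRNA #2. Its log2 fold change was 0.30 (adjusted p = 0.0355 from edgeR), and it lost the call without control replicate 1, control replicate 2, sgRNA #2 replicate 1 or sgRNA #2 replicate 3 (adjusted p up to 0.173). With the replicate block 4 of the 16 passed, 3 lower and 1 higher, where 6.06% and 3.97% of all tested genes did. DESeq2 with the block called 1 lower and 1 higher, against 1.79% and 0.741% of all tested genes. Of the 14 antioxidant enzymes tested, 1 was lower by adjusted p in edgeR, CAT, the peroxisomal catalase, and 0 were higher. Over all tested genes 2.22% and 0.464% were called in these directions. CAT had 87.9, 83.9 and 85.8 CPM in the control and 65.6, 71.1 and 70.8 CPM with sgRNA #2, with no overlap. Its log2 fold change was -0.31 (adjusted p = 0.0203 from edgeR), but it passed in only 7 of 14 alternatives and missed narrowly with DESeq2 (adjusted p = 0.0503). It lost the call without control replicate 1, control replicate 3 or any sgRNA #2 replicate, with adjusted p up to 0.155. With the block in edgeR 2 of the 14 were lower, CAT and the glutathione peroxidase GPX1, where 6.06% of all tested genes were. With DESeq2 and the block 0 passed (adjusted p = 0.0892 for CAT and 0.513 for GPX1).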

How the data were processed

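RNA-seq of 6 A549 libraries was analysed, 3 per group. The values deposited are unnormalised htseq-count counts for each gene symbol. The labels name Trim Galore, FastQC, Bowtie2 2.3.3.1, SAMtools, Picard, HTSeq and hg38, and the annotation and strand setting are not given in the sources used here. Lines for reads outside genes (19.7 to 21.1%) or ambiguous between genes (2.61 to 2.75%) were left out. The 13356 genes that reached 10 counts in 3 or more libraries were tested in R 4.3.3 with edgeR 4.0.16 (TMM, quasi-likelihood test, Benjamini-Hochberg adjustment), with DESeq2 1.42.0 as an alternative. An SE is the size of the log2 fold change divided by the square root of F. On simulated counts for 13215 genes of this comparison, the edgeR test by adjusted p recovered 65 of 65 genes changed by 2 on the log2 scale, 56 of 64 changed by 1 and 38 of 67 changed by 0.5, with 13 false calls. The simulated libraries were independent and drew each gene from the trend of dispersion, without replicate effects. The simulated figures therefore need not hold for the 6 libraries. Libraries within a group differed by more than sampling noise (chi-square per degree of freedom 2.72 to 3.61). Deviations of same-numbered libraries correlated at 0.269, 0.287 and 0.291, and the numbers come from the sample labels. Lengths, positions and 50-base words are from GENCODE 44, with 24542 symbols matched and 1943 not. The members and lists were chosen with earlier results of these data known. Genes were named by rule: NFE2L2, KEAP1, NQO1, members with adjusted p under 0.05, the 6 highest per kilobase, and up to 6 called genes of the other lists. Some genes of these lists are not reported here. Values for 3 counts cover counting error only.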

Additional observations from a re-analysis of the deposited data

How the results depend on the processing

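The calls of TKT, KEAP1, ABCC3, TRIM16L, MAFG and SQSTM1 held under all 14 alternatives, and 0 members passed both cut-offs under any of them. The number of members past the adjusted p alone was 4, and 5 with no count filter or without control replicate 1. DESeq2 without a block gave 6, with 5 lower and 1 higher, where it called 248 lower and 54 higher of 13356 tested genes. With the replicate block in edgeR 10 passed. DESeq2 with that block, added after seeing the data, gave 7. Of the companion genes, 6 passed, against 11 with no count filter, 21 with the replicate block, and 2 to 5 when single libraries were left out. Without sgRNA #2 replicate 1, 2 passed, MAFG and SQSTM1, and 3 passed without control replicate 2, control replicate 3 or sgRNA #2 replicate 2. With single libraries left out, near-zero log2 fold changes changed sign, with ranges of -0.0029 to 0.046 for TXNRD1, -0.064 to 0.019 for PRDX1, -0.053 to 0.12 for AKR1C1, -0.15 to 0.027 for AKR1C2, -0.24 to 0.052 for CBR3, -0.052 to 0.072 for UGDH, -0.040 to 0.039 for FTH1, -0.054 to 0.022 for ABCC1, -0.11 to 0.045 for PIR and -0.096 to 0.031 for OSGIN1. Of the 32 members not called, 10 changed sign in this way and 21 others moved by over 1.5 times, among them SRXN1 (-0.20 to -0.065), EPHX1 (-0.22 to -0.041), GPX2 (-0.16 to -0.033) and HMOX1 (0.053 to 0.18). Fitted as 1 row, the summed counts of AKR1C1, AKR1C2 and AKR1C3 had a log2 fold change of 0.020, which is not an estimate for AKR1C2 alone. FTH1 was -7.95e-05 with at least 10 counts required in every library. Over all genes, 359 passed the adjusted p alone, against 583 with no filter, 1339 with the replicate block and 223 without sgRNA #2 replicate 1, and 96 passed both cut-offs, against 63 with at least 10 counts in every library. The cause of these shifts was not tested. RLE size factors, total counts only and DESeq2 shifted the median of all genes to 0.007 at most. The longest-transcript length moved 30 of 37 levels per kilobase beyond their spread. With total counts only, all 37 levels stayed within their spread. An exact permutation test of 1 gene cannot go below p = 0.1 with 3 against 3 libraries.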

Other observations

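Stress programmes beside the NRF2 pathway were read from 12 genes of the ATF4 response to amino acid shortage and 10 interferon-response genes. TRIB3, a pseudokinase induced by ATF4, had 160, 155 and 159 CPM in the control and 204, 203 and 170 CPM with sgRNA #2, with no overlap (log2 fold change 0.28, adjusted p = 0.0463 from edgeR). DDIT4, an inhibitor of mTORC1, had 330, 426 and 465 CPM against 248, 298 and 339 CPM, and these ranges overlapped (log2 fold change -0.47, adjusted p = 0.0284 from edgeR). TRIB3 passed in 8 of 14 alternatives and DDIT4 in 9. Both lost the call without control replicate 2, control replicate 3, sgRNA #2 replicate 1 or sgRNA #2 replicate 2, and TRIB3 also without control replicate 1, with adjusted p up to 0.237 for TRIB3 and 0.198 for DDIT4. TRIB3 also missed with at least 10 counts in every library, and DDIT4 with DESeq2, where its adjusted p was 0.362. The median log2 fold change of the 12 ATF4 genes was 0.19, beside 0.0035 for all tested genes, with 9 estimates above 0 and 3 below. With the replicate block in edgeR 6 of them were higher and 2 lower, beside 3.97% and 6.06% of all tested genes. DESeq2 with the block called 2 higher and 1 lower, beside 0.741% and 1.79% of all tested genes. SLC7A11, the cystine importer among the NRF2 targets, is also a known ATF4 target. Whether ATF4 had a part in its estimate was not tested.

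Of the 10 interferon-response genes, edgeR called 0 by adjusted p, where 2.22% of all tested genes were called lower and 0.464% higher. At an unadjusted p under 0.05 in edgeR, 2 were lower and 1 higher, where 6.8% and 4.35% of all tested genes were. DESeq2 called 0. With the replicate block in edgeR 1 was higher and 1 lower, beside 3.97% and 6.06% of all tested genes. DESeq2 with the block called 0, beside 0.741% higher and 1.79% lower of all tested genes. Their median log2 fold change was -0.17, with 7 estimates below 0. The OAS1 sensor of double-stranded RNA was estimated at 0.28 (adjusted p = 0.139 from edgeR).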
